A study of Rattus norvegicus with 12 samples.

Results

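Splicing factors and heterogeneous nuclear ribonucleoproteins (hnRNPs) were examined in rat tail tendon fascicles, thin bundles of collagen fibres with rows of tendon cells among them. The genes were chosen by symbol: Snrp (proteins of the small nuclear ribonucleoproteins, snRNPs), Lsm, Sf3a and Sf3b, U2af, Prpf, Srsf (SR proteins) and Hnrnp. A member also needed a mean log2 intensity over the 12 arrays in the upper 50% of all probes, and each gene was read from its brightest probe. Of 58 genes with such a symbol, 54 passed, out of 13336 named genes on the array and 7780 above the same threshold. Just below it lay Prpf18, Lsm11, Snrpc and Lsm1, with geometric mean intensities of 51.9, 55.1, 52.7 and 51.3, and just above it Srsf12, Hnrnpab, Hnrnpr and Lsm14a, at 57.2, 59.0, 61.2 and 61.5. The 54 were 4 snRNP proteins, 9 LSm proteins, 5 SF3A and SF3B subunits, 1 U2AF gene, 9 PRPF proteins, 9 SR proteins and 17 hnRNPs.

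The study asked how tendon fascicles respond to cyclic tensile strain in vitro. There were 4 groups, each with 3 RNA samples and 1 Illumina rat bead array per sample: fascicles left unstrained for 1 h, strained for 1 h, left unstrained for 24 h and strained for 24 h. All were isolated fascicles of Rattus norvegicus held in vitro, so the unstrained groups carry the isolation and culture too; the rats' strain, age and sex, the size of the strain and a pooling of animals are not given in the labels. Separate animals or cultures are not stated for the replicates of a group, so the spread behind each p-value is that among these arrays and may be technical.

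Pre-mRNA splicing removes introns in the spliceosome, which assembles on each intron from snRNPs, particles of a small nuclear RNA with a ring of Sm or LSm proteins. The U1 particle marks the start of the intron and U2 its branch site, where SF3A and SF3B hold it, and PRPF proteins bring in and rearrange the later particles. SR proteins and hnRNPs bind the pre-mRNA itself and shift which exons are kept, often against each other, and many of them also control their own transcripts through unproductive splicing.

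Values are the deposited intensities, which were already normalized between arrays and are in arbitrary units. The lowest value was 33.7 and the median of every array 57.0; what background correction was made is not given, and any background in these values would make fold changes of dim probes too small. Levels of different probes are not compared. Arrays of a group correlated at 0.969 to 0.985. Tendon markers bore out the label, since all 11 on the array passed the threshold, among them tenomodulin (Tnmd) and the collagens Col1a1 and Col1a2. Their summed intensity ran from 43337 to 66429 in unstrained and 45402 to 66267 in strained fascicles at 1 h, and from 28219 to 37405 and 23252 to 34452 at 24 h. Macrophage and leucocyte markers, 12 of 13 above the threshold, summed to 3227 to 5699 and 2239 to 3818 at 1 h and to 2561 to 3409 and 1621 to 2248 at 24 h. Of the endothelial, adipocyte and keratinocyte markers, 3 of 7, 1 of 4 and 0 of 3 passed the threshold. In unstrained fascicles at 1 h, Cdh5, Vwf, Adipoq, Krt14 and Krt10, which did not pass, lay at 49.3 to 54.8, below the array median. Those that passed read 65.9 (Cldn5), 64.5 (Tie1) and 55.3 (Esam) among endothelial markers and 68.8 (Fabp4) among adipocyte markers in that group. Smooth muscle markers (4 of 6 above the threshold) summed to 371 to 404 without and 457 to 574 with strain at 24 h, and nerve markers (5 of 7) to 574 to 787 and 486 to 518. The nerve sum moved mainly with Cnp, which had means of 338 and 176 there. Means of the other nerve markers lay at 48.6 to 66.9.

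Among the 54 genes, as among all probes, more were called for time in culture than for strain. In strained fascicles 17 of the 54 were higher at 24 h than at 1 h and 7 lower. The threshold was an adjusted p under 0.05 by limma over all 11258 probes tested. Of these probes 12.2% were higher and 8.52% lower (20.7% in all). In unstrained fascicles 5 of the 54 were higher and 4 lower. Over all probes 9.83% were higher and 7.42% lower there (17.2% in all), so the unstrained counts of members are near the background shares. The median log2 change was 0.16 under strain and 0.03 without it, against 0.01 and 0.00 over all probes tested. No member passed for strain itself, at 1 h, where 0% of probes passed, or at 24 h, where 2.34% did. Both time comparisons cover tissue in which other transcripts moved as well: 7 of 11 tendon markers were lower at 24 h under strain and 5 of 11 without it, and of 12 macrophage and leucocyte markers 5 were lower under strain and 6 lower and 1 higher without it. In bulk RNA, fewer cells of a type and less RNA per cell cannot be told apart, and the part of cell makeup in these results was not tested. The 1 h and 24 h arrays are separate sets. Any difference in animals, runs or array batches between these sets cannot be told apart from time in culture.

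**Figure D1:**
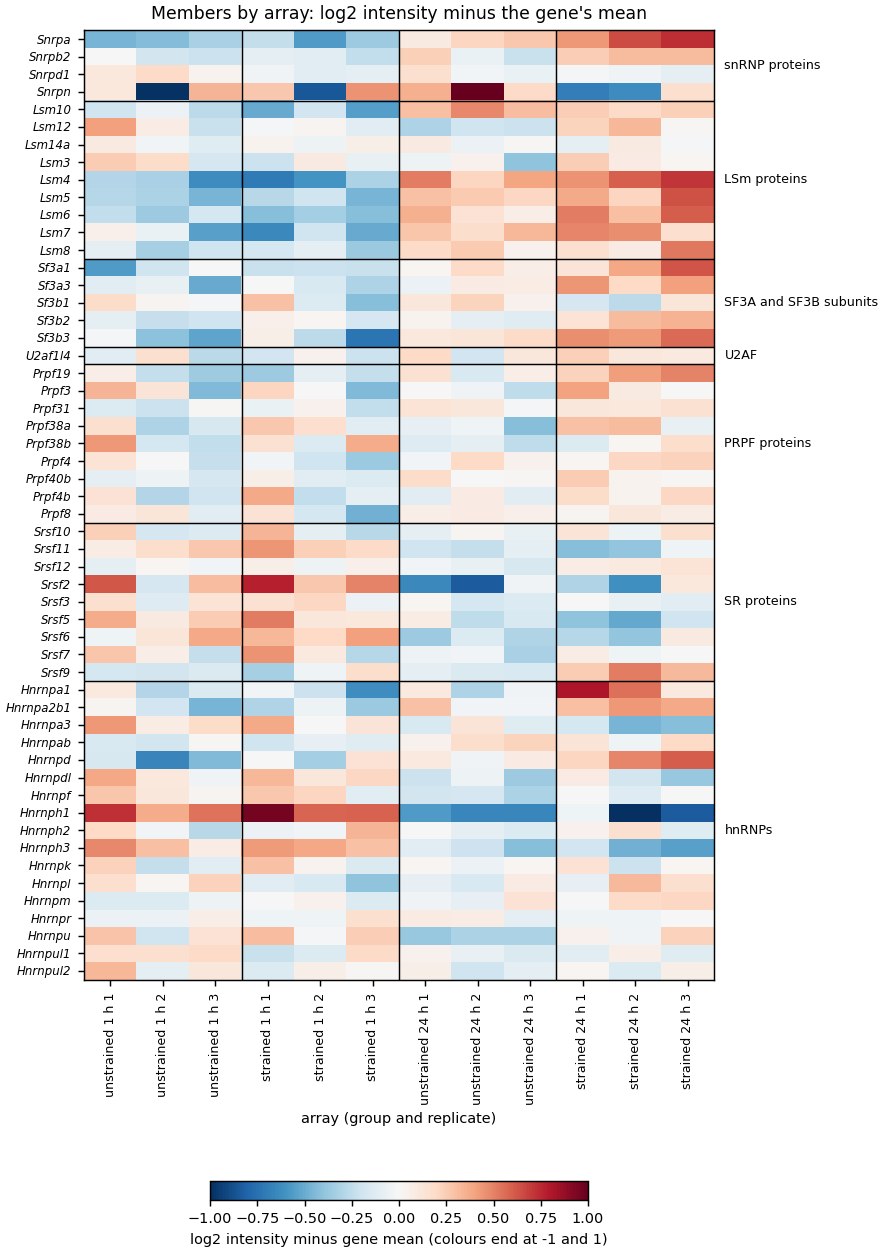
Intensity of the 54 genes on each of the 12 arrays, as log2 intensity minus the mean of that gene over the arrays (colour, ending at -1 and 1), with genes in rows by role and arrays in columns by group. Snrpa and most LSm rows turn from blue at 1 h to red at 24 h, and Hnrnph1, Hnrnph3 and Srsf11 turn the other way.

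The calls are given here by role. The 28 snRNP, LSm, SF3, U2AF and PRPF members, called the core group here, had 5 higher and 0 lower with time in unstrained fascicles. In strained ones 13 were higher and 0 lower. Over all probes 9.83% were higher and 7.42% lower without strain, and 12.2% and 8.52% with it. By symbol the core group also holds Lsm10 of the U7 particle, Lsm12 and the P-body protein Lsm14a, described below. Lsm10 is counted as higher in both series, though a further probe of it passed in neither. The 26 SR proteins and hnRNPs had 0 higher and 4 lower without strain, and 4 higher and 7 lower with it. This grouping was made after the values were seen, so the split describes these arrays only. The medians were 0.14 and -0.18 without strain and 0.28 and -0.07 with it, on the log2 scale. Without replicate 3 of the strained 24 h group, 8 members of the core group were higher in place of 13. The 2 time comparisons share no array with each other, and each shares arrays with both strain comparisons. The 2 series are still not independent results. At 1 h, deviations from the group means correlated at 0.60, 0.54 and 0.52 between unstrained and strained arrays of the same number. Both comparisons also use 1 spread estimated from all 12 arrays.

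**Figure D2:**
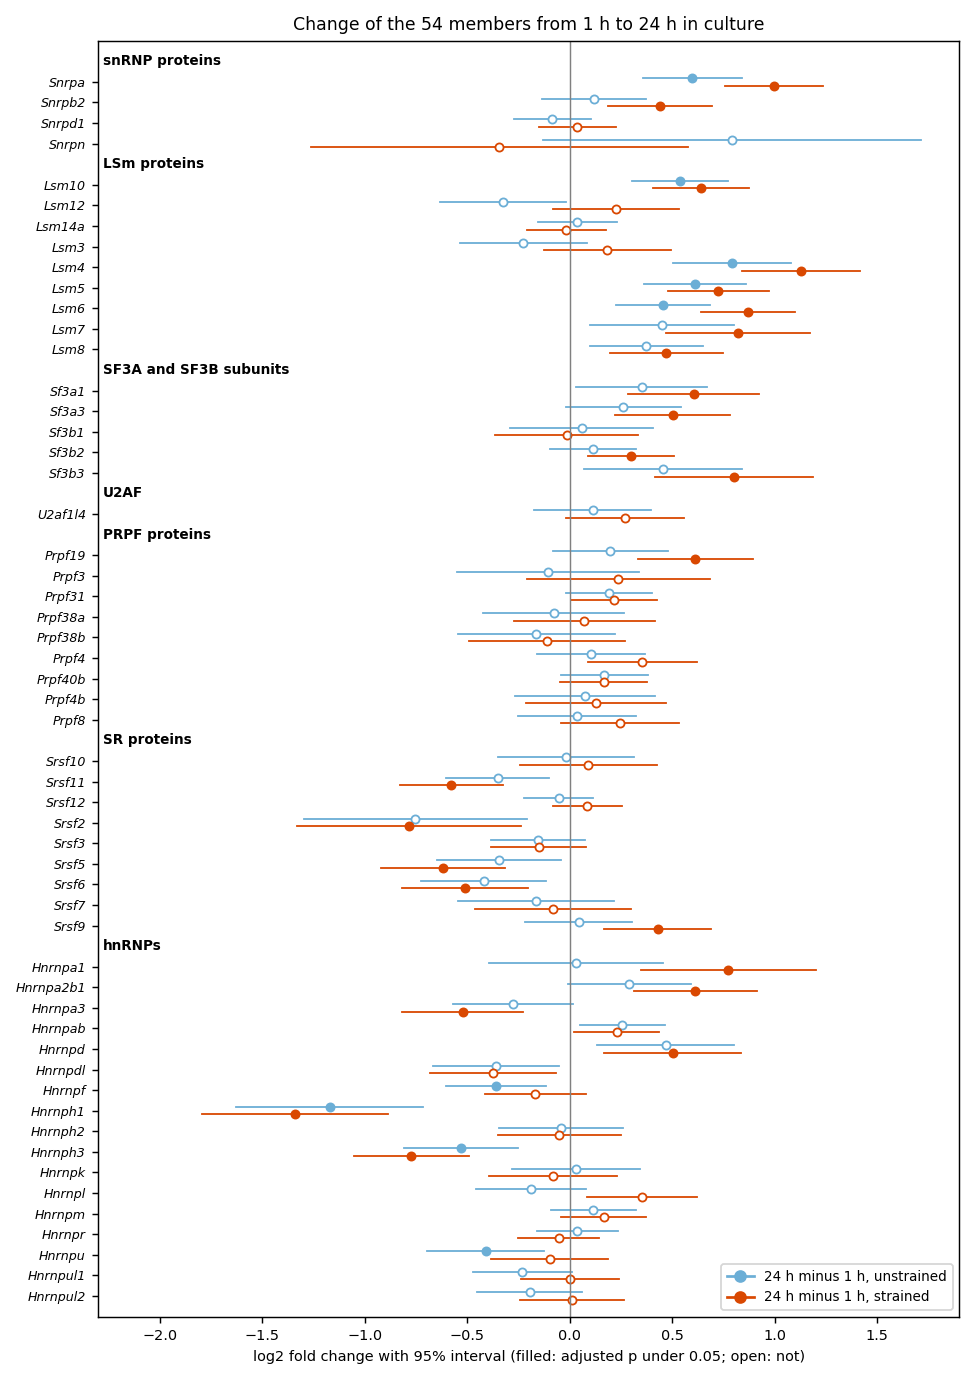
Log2 fold change between 24 h and 1 h for each of the 54 genes, in unstrained and in strained fascicles, with 95% intervals from limma; filled points passed an adjusted p under 0.05. The LSm proteins Lsm4, Lsm5 and Lsm6 and Snrpa lie to the right of 0 in both series, and Hnrnph1 and Hnrnph3 to the left.

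The promoters of 4 genes with large differences over time are given here, those of Lsm4 and Snrpa, which were higher at 24 h, and of Hnrnph1 and Srsf5, which were lower at 24 h under strain. Each window runs from 250 bases before to 50 bases after the annotated start in RefSeq's GRCr8 assembly, 5′ to 3′ on the gene's strand: chr16:18794837-18795136 on the minus strand, chr1:91617993-91618292 on the minus strand, chr10:35194383-35194682 on the plus strand and chr6:106336506-106336805 on the plus strand. Capitals mark matches, on either strand, to short motifs of general promoters: CCGGAAG for ETS factors, ATGGCGG for YY1, GCGCANGCG for NRF1, GGGCGG for Sp1 and CCAAT.
Lsm4: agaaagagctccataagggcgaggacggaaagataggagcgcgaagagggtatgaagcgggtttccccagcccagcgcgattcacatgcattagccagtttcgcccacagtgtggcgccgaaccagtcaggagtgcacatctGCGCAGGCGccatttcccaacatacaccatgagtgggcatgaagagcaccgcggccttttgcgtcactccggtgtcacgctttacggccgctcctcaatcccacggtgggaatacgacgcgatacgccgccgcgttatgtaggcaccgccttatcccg
Snrpa: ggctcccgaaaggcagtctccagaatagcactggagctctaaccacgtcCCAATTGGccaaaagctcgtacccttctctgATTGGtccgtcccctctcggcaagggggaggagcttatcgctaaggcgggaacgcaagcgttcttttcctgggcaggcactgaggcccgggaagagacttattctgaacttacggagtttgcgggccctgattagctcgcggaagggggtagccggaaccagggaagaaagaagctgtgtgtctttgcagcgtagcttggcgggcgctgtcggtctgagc
Hnrnph1: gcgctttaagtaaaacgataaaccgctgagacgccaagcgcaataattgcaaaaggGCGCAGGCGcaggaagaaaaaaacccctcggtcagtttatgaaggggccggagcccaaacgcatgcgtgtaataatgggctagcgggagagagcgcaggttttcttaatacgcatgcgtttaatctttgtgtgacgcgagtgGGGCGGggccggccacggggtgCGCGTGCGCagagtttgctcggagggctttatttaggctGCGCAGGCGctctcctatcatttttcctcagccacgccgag
Srsf5: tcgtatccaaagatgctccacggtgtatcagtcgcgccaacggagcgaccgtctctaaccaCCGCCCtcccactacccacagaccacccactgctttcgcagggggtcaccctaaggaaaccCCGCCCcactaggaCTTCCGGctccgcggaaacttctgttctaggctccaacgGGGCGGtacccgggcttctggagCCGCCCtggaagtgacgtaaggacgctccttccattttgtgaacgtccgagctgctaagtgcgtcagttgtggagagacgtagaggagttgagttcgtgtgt

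Lsm4 had 1 NRF1 match, Snrpa 3 CCAAT matches of which a pair overlap, Hnrnph1 3 NRF1 matches and 1 Sp1 match, and Srsf5 1 ETS and 4 Sp1 matches. An NRF1 match stood in Lsm4, which was higher at 24 h, and in Hnrnph1, which was lower. Whether a motif goes with the direction of change was not tested. Of the 54 genes, 52 had a promoter in the table; Lsm14a and Sf3b2 did not match. An ETS match stood in 23.1% of these and in 9.22% of all 27457 promoters of the same length, an NRF1 match in 26.9% and 6.26%, a YY1 match in 17.3% and 5.22%, and an Sp1 match in 65.4% and 34.9%. CCAAT was found in 50% and 37.7%, the E-box CACGTG in 15.4% and 6.65%, the cyclic AMP element TGACGTCA in 1.92% and 1.91%, and TATAAA in 9.62% and 14.3%. The median GC content was 60.3% in the 52 and 52.3% in all promoters. These are counts of letters and not of bound sites, and the GC-rich motifs share letters with GC content. The 52 genes had to pass the intensity threshold, while the 27457 promoters were not limited to such genes, so the 2 sets are unlike.

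Among snRNP proteins, Snrpa, the U1 protein that binds a stem-loop of U1 RNA, was higher at 24 h in both series. Snrpa read 346, 354 and 383 in unstrained and 405, 323 and 372 in strained fascicles at 1 h, and 508, 556 and 576 in unstrained and 646, 753 and 797 in strained fascicles at 24 h. All 6 arrays at 24 h lay above all 6 at 1 h, and at 24 h the strained arrays lay above the unstrained ones. The log2 change was 0.60 ± 0.11 (SE) in unstrained fascicles (adjusted p = 0.00297) and 1.00 ± 0.11 in strained ones (adjusted p = 1.11e-04), a difference of 1.51-fold and 2-fold. Snrpb2, its U2 counterpart, rose with time under strain by 0.44 (adjusted p = 0.0176), from 276 ± 16.1 to 374 ± 10.5 (SD, n = 3 each), and differed by 0.12 without it (adjusted p = 0.57). The former call was lost without replicate 3 of strained 1 h or replicate 2 or 3 of strained 24 h, with an adjusted p of up to 0.0625.

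The other snRNP members are Sm ring proteins, Snrpd1 (SmD1) and Snrpn (SmN, a close relative of SmB known for its expression in brain). The intensities of Snrpd1 were 69.8, 74.2 and 66.6 (unstrained, 1 h), 63.4, 60.0 and 60.8 (strained, 1 h), 72.8, 63.7 and 62.2 (unstrained, 24 h) and 64.1, 63.4 and 61.2 (strained, 24 h). For Snrpn, the 1 h arrays gave 119, 55.5 and 140 without strain and 133, 61.2 and 151 with it, and the 24 h arrays 141, 269 and 126 without and 68.4, 71.4 and 123 with it. Snrpd1 stayed within 60.0 to 74.2, near the array median, throughout. In Snrpn, replicate 2 was the low array in both 1 h groups, and the strained 24 h arrays lay below the unstrained ones. Neither passed a test: for time without strain Snrpn differed by 0.79 ± 0.42, with a 95% interval of -0.13 to 1.71.

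The LSm proteins held most of the members that rose without strain. Lsm2 to Lsm8 form the ring on U6 RNA, and with Lsm1 in place of Lsm8 a cytoplasmic ring that promotes mRNA decay. Of the 6 measured genes of the U6 ring, 3 rose in unstrained and 5 in strained fascicles, against 9.83% and 12.2% of all probes. Lsm4 read 131, 128 and 104 in unstrained and 98.2, 106 and 129 in strained fascicles at 1 h, and 229, 186 and 211 in unstrained and 219, 243 and 263 in strained fascicles at 24 h. The intensities of Lsm5 were 448, 440 and 396 (unstrained, 1 h), 452, 477 and 397 (strained, 1 h), 669, 656 and 631 (unstrained, 24 h) and 712, 636 and 851 (strained, 24 h). Unstrained fascicles had Lsm6 at 398, 367 and 417 at 1 h and 604, 522 and 493 at 24 h, and strained ones at 351, 373 and 351 and then 671, 581 and 716. For each of these genes the 24 h arrays all lay above the 1 h arrays, while at 24 h the strained and unstrained arrays overlapped for Lsm4, Lsm5 and Lsm6.

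Lsm4 rose by 0.79 ± 0.13 without strain (adjusted p = 0.0017) and by 1.13 ± 0.13 with it (adjusted p = 1.62e-04), which is 1.73-fold and 2.19-fold. Lsm5 rose by 0.61 ± 0.11 and 0.72 ± 0.11 (adjusted p = 0.00329 and 9.07e-04). Lsm6 rose by 0.45 ± 0.11 and 0.87 ± 0.11 (adjusted p = 0.0116 and 0.0002), and without replicate 1 of unstrained 24 h the former call had an adjusted p of 0.0571. For Lsm7, the 1 h arrays gave 250, 230 and 165 without strain and 154, 210 and 170 with it, and the 24 h arrays 292, 272 and 304 without and 337, 333 and 270 with it. Its 24 h arrays all exceeded its 1 h arrays, but only the strained comparison passed, at 0.82 ± 0.16 (adjusted p = 0.00337) against 0.45 ± 0.16 without strain (adjusted p = 0.0777). Lsm8, the subunit that keeps the ring nuclear, rose by 0.47 under strain (adjusted p = 0.0194, up to 0.0811 without replicate 3 of strained 1 h or of strained 24 h), and differed by 0.37 without it (adjusted p = 0.0639). Lsm3 differed by -0.23 without and 0.18 with strain and did not pass.

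Lsm10 belongs to the U7 particle, which processes histone mRNA ends. Lsm10 read 67.4, 74.5 and 64.6 in unstrained and 54.7, 67.9 and 52.9 in strained fascicles at 1 h, and 95.4, 108 and 95.9 in unstrained and 92.0, 88.3 and 91.4 in strained fascicles at 24 h. The 24 h arrays again lay above all 1 h arrays, and both time comparisons passed, at 0.54 ± 0.11 and 0.64 ± 0.11 (adjusted p = 0.005 and 0.00133). A further Lsm10 probe did not show this, with 0.06 ± 0.15 and -0.06 ± 0.15 (adjusted p = 0.836 and 0.846), so the 2 probes of this gene disagree. Lsm12 carries an LSm domain but is not known as a spliceosome subunit, and it was the LSm gene of the brightest probe. Unstrained fascicles had Lsm12 at 936, 745 and 604 at 1 h and 571, 615 and 608 at 24 h, and strained ones at 696, 719 and 654 and then 825, 890 and 712. The unstrained arrays at 24 h lay below the strained ones, and neither time comparison passed. Lsm14a, a P-body protein, stayed between 56.5 and 65.4 on all arrays.

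**Figure D3:**
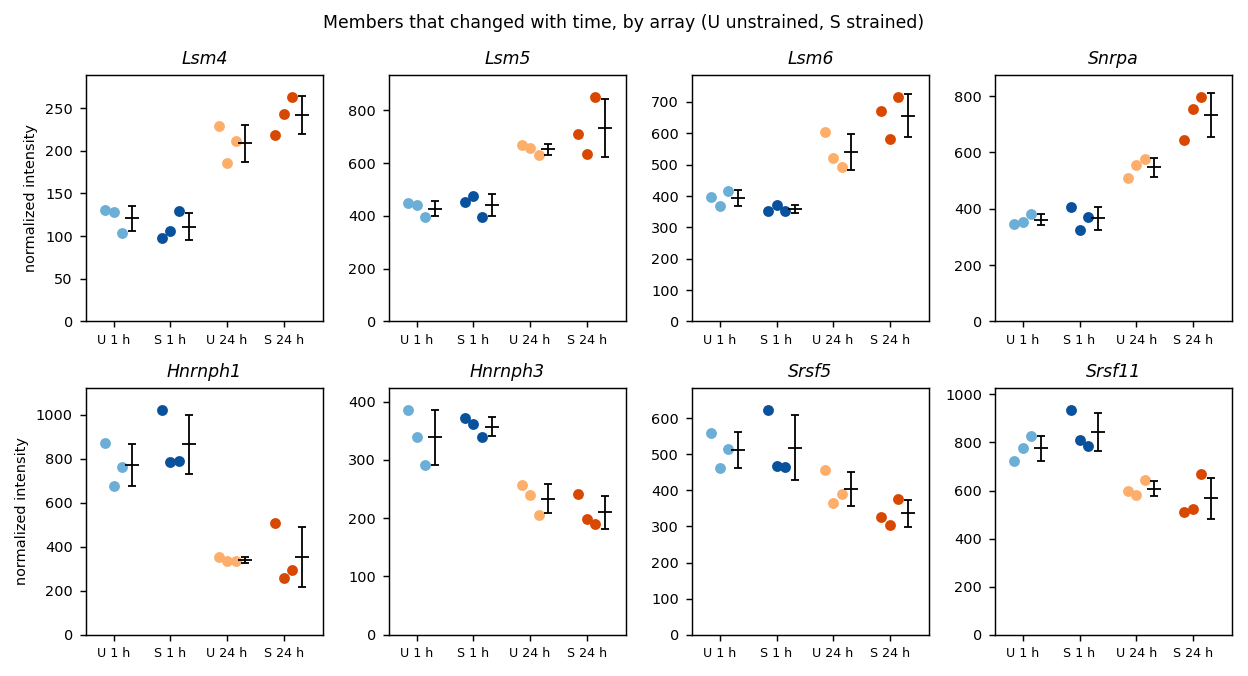
Deposited intensity on each array (points, arbitrary units, axis from 0) for members that differed over time, in the 4 groups of 3 arrays, with the bar at the group mean and the error bar its SD. Snrpa, Lsm4 and Lsm5 stand higher in both 24 h groups and Hnrnph1 and Hnrnph3 lower.

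The SF3A and SF3B subunits, which clamp the U2 particle to the branch site, rose with time under strain in 4 of 5 cases and in 0 of 5 without strain. Over all probes 12.2% and 9.83% were higher. Without strain all 5 differences were positive, and 3 had 24 h arrays wholly above the 1 h arrays (50.4% and 18.2% of all probes). The difference of the 2 time effects passed for 0 of 5 by limma (lowest adjusted p = 0.787). The intensities of Sf3b3 were 425, 322 and 296 (unstrained, 1 h), 446, 356 and 258 (strained, 1 h), 459, 466 and 488 (unstrained, 24 h) and 591, 575 and 634 (strained, 24 h). The strained 24 h arrays lay above the other 9, and the unstrained 24 h arrays lay above all 6 at 1 h. Sf3b3 rose by 0.80 ± 0.18 under strain (adjusted p = 0.00681) and differed by 0.45 ± 0.18 without it (adjusted p = 0.105). Sf3a1 rose by 0.60 and Sf3a3 by 0.50 under strain (adjusted p = 0.0117 and 0.0157), and differed by 0.35 and 0.26 without it (adjusted p = 0.135 and 0.211). Without replicate 3 of strained 24 h the call for Sf3a1 was lost (adjusted p = 0.0538). That for Sf3a3 was lost without replicate 1 or 3 of strained 24 h or replicate 3 of strained 1 h (up to 0.0618).

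For Sf3b2, the 1 h arrays gave 158, 143 and 146 without strain and 174, 170 and 149 with it, and the 24 h arrays 172, 158 and 154 without and 184, 209 and 213 with it. Its strained 24 h arrays were the highest of the 12, by a small margin. The rise of 0.30 ± 0.10 (adjusted p = 0.0452) held in 3 of 12 fits that each left out 1 array, with adjusted p up to 0.153 in the others, and was lost in 7 of 9 other settings. Without strain the difference was 0.11 ± 0.10. Unstrained fascicles had Sf3b1 at 94.6, 84.5 and 82.3 at 1 h and 89.8, 96.8 and 85.4 at 24 h, and strained ones at 102, 75.7 and 62.0 and then 74.0, 69.3 and 90.3. Sf3b1, the subunit that contacts the branch site, had overlapping groups throughout and intervals of -0.29 to 0.41 without and -0.37 to 0.33 with strain. U2af1l4 is a relative of the small U2AF subunit, which reads the 3′ splice site. The intensities of U2af1l4 were 135, 162 and 120 (unstrained, 1 h), 127, 149 and 125 (strained, 1 h), 166, 127 and 157 (unstrained, 24 h) and 171, 157 and 155 (strained, 24 h). Its strained 24 h arrays lay above its strained 1 h arrays, and no comparison passed.

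Of the 9 PRPF proteins, 1 rose with time under strain and 0 without it, where 12.2% and 9.83% of all probes were higher. Prpf19, a ubiquitin ligase and the name-giving subunit of the complex that activates the spliceosome, rose in that series. Prpf19 read 101, 81.8 and 75.4 in unstrained and 75.0, 90.7 and 81.5 in strained fascicles at 1 h, and 107, 86.9 and 101 in unstrained and 113, 129 and 136 in strained fascicles at 24 h. The strained 24 h arrays were above the other 9. It differed by 0.61 ± 0.13 under strain (adjusted p = 0.0052) and 0.20 ± 0.13 without it (adjusted p = 0.364). Unstrained fascicles had Prpf4 at 317, 288 and 246 at 1 h and 283, 331 and 296 at 24 h, and strained ones at 283, 251 and 223 and then 292, 333 and 338. Prpf4, a protein of the U4/U6 particle, had the brightest PRPF probe, and its arrays at 1 h and 24 h overlapped without strain and did not under strain. The differences were 0.10 ± 0.12 and 0.35 ± 0.12 (adjusted p = 0.651 and 0.0591), neither passing. The core factor Prpf8, which holds the catalytic RNA, differed by 0.03 ± 0.13 and 0.24 ± 0.13 and did not pass. The remaining PRPF genes (Prpf3, Prpf31, Prpf38a, Prpf38b, Prpf40b and Prpf4b) ranged from -0.16 to 0.24 over both time comparisons.

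SR proteins, which bind exon enhancers and recruit the spliceosome, fell with time in 4 of 9 cases under strain, with 1 rise. Over all probes 8.52% were lower and 12.2% higher there. Without strain 0 of 9 passed, against 17.2% of all probes. There 4 of 9 had an unadjusted p under 0.05, against 29% of all probes. Those that fell were Srsf2, Srsf5, Srsf6 and Srsf11. The intensities of Srsf5 were 559, 461 and 516 (unstrained, 1 h), 622, 468 and 465 (strained, 1 h), 457, 364 and 390 (unstrained, 24 h) and 327, 304 and 377 (strained, 24 h). For Srsf11, the 1 h arrays gave 725, 776 and 829 without strain and 934, 811 and 785 with it, and the 24 h arrays 599, 583 and 642 without and 511, 524 and 667 with it. Srsf6 read 452, 508 and 607 in unstrained and 586, 536 and 618 in strained fascicles at 1 h, and 362, 424 and 379 in unstrained and 382, 354 and 495 in strained fascicles at 24 h. For Srsf5 and Srsf11 all 24 h arrays lay below all 1 h arrays. For Srsf6 this held within each series, with replicate 3 of strained 24 h standing above the other 24 h arrays.

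Srsf5 fell by 0.62 on the log2 scale under strain (adjusted p = 0.00744) and differed by -0.35 ± 0.14 without it (adjusted p = 0.116). Srsf11 differed by -0.58 ± 0.12 with strain, which passed, and -0.35 ± 0.12 without it, which did not (adjusted p = 0.00372 and 0.056). A further, dimmer Srsf11 probe had -0.35 ± 0.16 with strain (adjusted p = 0.154) and -0.61 ± 0.16 without it (adjusted p = 0.021), so both probes were lower and passed in different series. Srsf6 changed by -0.51 ± 0.14 under strain (adjusted p = 0.0215) and its call was lost, with adjusted p up to 0.0972, without replicate 1 or 3 of strained 1 h or replicate 1 or 2 of strained 24 h. Unstrained fascicles had Srsf2 at 374, 217 and 301 at 1 h and 156, 137 and 238 at 24 h, and strained ones at 418, 294 and 344 and then 198, 159 and 262. Srsf2 spread widely within its groups, and its fall of -0.78 ± 0.25 under strain (adjusted p = 0.0433) held in 6 of 12 fits without 1 array, with adjusted p up to 0.17. Without strain the differences of Srsf2 and Srsf6 were -0.75 ± 0.25 and -0.42 ± 0.14 (adjusted p = 0.0585 and 0.0597).

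Srsf9 was the SR protein that rose. The intensities of Srsf9 were 157, 156 and 161 (unstrained, 1 h), 141, 172 and 201 (strained, 1 h), 167, 161 and 160 (unstrained, 24 h) and 212, 253 and 222 (strained, 24 h). The strained 24 h arrays lay above the other 9, which ran from 141 to 201. With time it rose by 0.43 ± 0.12 under strain (adjusted p = 0.0239) and differed by 0.04 ± 0.12 without it (adjusted p = 0.868), and the call was lost without replicate 1 of strained 1 h or replicate 2 or 3 of strained 24 h, with adjusted p up to 0.103. Srsf3, Srsf7, Srsf10 and Srsf12 did not pass, with differences from -0.17 to 0.09. One probe reads 1 stretch of a transcript, so productive and unproductive splice forms of these genes are not told apart here.

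Of the 17 hnRNPs, 4 fell in unstrained fascicles, where 7.42% of all probes were lower. They were Hnrnph1, Hnrnph3, Hnrnpf and Hnrnpu, and Hnrnph1 and Hnrnph3 fell in strained fascicles as well. The first 3 are the H/F proteins, which bind runs of G. For Hnrnph1, the 1 h arrays gave 870, 678 and 764 without strain and 1020, 785 and 789 with it, and the 24 h arrays 355, 334 and 333 without and 509, 258 and 295 with it. Hnrnph3 read 385, 340 and 291 in unstrained and 371, 361 and 339 in strained fascicles at 1 h, and 256, 239 and 206 in unstrained and 242, 198 and 190 in strained fascicles at 24 h. The intensities of Hnrnpf were 1995, 1780 and 1674 (unstrained, 1 h), 1988, 1912 and 1522 (strained, 1 h), 1452, 1465 and 1320 (unstrained, 24 h) and 1648, 1507 and 1642 (strained, 24 h). Hnrnph1 and Hnrnph3 were lower on every 24 h array than on any 1 h array, and replicate 1 of strained 24 h was the highest 24 h array for Hnrnph1. For Hnrnpf the unstrained arrays were parted by time and the strained arrays overlapped.

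Hnrnph1 had the largest change of the 54 genes in both series. Its mean went from 771 ± 95.8 to 340 ± 12.5 without strain and from 865 ± 134 to 354 ± 136 with it (SD, n = 3 each). On the log2 scale that was -1.17 ± 0.21 and -1.34 ± 0.21 (adjusted p = 0.00247 and 8.44e-04), or 2.25-fold and 2.54-fold lower. Hnrnph3 changed by -0.53 ± 0.13 and -0.77 ± 0.13 (adjusted p = 0.0136 and 0.00126), the former up to 0.0572 without replicate 1 of unstrained 1 h or replicate 3 of unstrained 24 h. Hnrnpf changed by -0.36 ± 0.11 without strain (adjusted p = 0.0459), a call that held in 2 of 12 fits without 1 array, with adjusted p up to 0.153, and differed by -0.17 with strain (adjusted p = 0.356). Hnrnph2, the fourth of this family, differed by -0.04 and -0.05 and did not pass.

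Unstrained fascicles had Hnrnpu at 837, 599 and 759 at 1 h and 530, 552 and 554 at 24 h, and strained ones at 854, 681 and 816 and then 710, 673 and 809. Hnrnpu, the scaffold attachment factor that also binds chromatin, was lowest on the 3 unstrained 24 h arrays, and no other array reached down to them. Its time difference was -0.41 ± 0.13 without strain (adjusted p = 0.0492) and -0.10 ± 0.13 with it (adjusted p = 0.681). The former held in 2 of 12 fits without 1 array, with adjusted p up to 0.173.

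The A/B proteins, which bind exon silencers and oppose SR proteins, went both ways under strain. The intensities of Hnrnpa2b1 were 418, 360 and 297 (unstrained, 1 h), 334, 396 and 318 (strained, 1 h), 503, 402 and 403 (unstrained, 24 h) and 506, 556 and 533 (strained, 24 h). Hnrnpa1 read 107, 81.6 and 90.6 in unstrained and 98.0, 86.3 and 65.1 in strained fascicles at 1 h, and 107, 80.8 and 97.9 in unstrained and 175, 147 and 107 in strained fascicles at 24 h. For Hnrnpa3, the 1 h arrays gave 730, 568 and 611 without strain and 701, 539 and 588 with it, and the 24 h arrays 486, 591 and 497 without and 478, 390 and 402 with it. The strained 24 h arrays were the highest of the 12 for Hnrnpa2b1 and the lowest for Hnrnpa3. For Hnrnpa1, replicates 1 and 2 of that group stood out, and replicate 3 lay level with the highest unstrained arrays.

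With time under strain Hnrnpa2b1 rose by 0.61 ± 0.14 (adjusted p = 0.00733), Hnrnpa1 by 0.77 ± 0.20 (adjusted p = 0.0143), and Hnrnpa3 fell by 0.52 ± 0.14 (adjusted p = 0.0159). Without strain the differences were 0.29, 0.03 and -0.28, and none passed. The call for Hnrnpa1 was lost without replicate 3 of strained 1 h or replicate 1 or 2 of strained 24 h (adjusted p up to 0.0599). That for Hnrnpa3 was lost without replicate 1 of strained 1 h or replicate 2 or 3 of strained 24 h (up to 0.0679). Hnrnpd, or AUF1, binds AU-rich elements of unstable mRNAs. Unstrained fascicles had Hnrnpd at 96.5, 68.1 and 79.2 at 1 h and 115, 105 and 114 at 24 h, and strained ones at 108, 85.3 and 119 and then 125, 151 and 164. Its strained 24 h arrays were the highest of the 12, and it rose by 0.50 ± 0.15 with time under strain (adjusted p = 0.0367), which held in 7 of 12 fits without 1 array (up to 0.138). Without strain Hnrnpd differed by 0.47 ± 0.15 (adjusted p = 0.0562), with arrays that did not overlap between the times.

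The other hnRNPs (Hnrnpab, Hnrnpdl, Hnrnpk, Hnrnpl, Hnrnpm, Hnrnpr, Hnrnpul1 and Hnrnpul2) passed in neither series, with differences from -0.38 to 0.35. Hnrnpk, a binder of C-rich RNA, had intervals of -0.28 to 0.34 without and -0.40 to 0.23 with strain. Over all 54 genes, 5 rose and 2 fell in both series, 12 rose and 5 fell under strain without passing in unstrained fascicles, 2 fell in unstrained fascicles without passing under strain, and 28 passed in neither. The 24 h arrays lay wholly above the 1 h arrays for 13 members without strain and 23 with it (18.2% and 19.4% of all probes), and wholly below for 9 and 8 (15.5% and 15%). Whether the 2 series differ is tested by the difference of the effects below, which no member passed, so the larger count under strain is not shown to be a different response.

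Strain for 1 h left the 54 genes without a called difference. By limma 0 of them passed, as did 0 of 11258 probes, and 4 (7.41%) had an unadjusted p under 0.05, against 4.90% of all probes. The median log2 difference was 0.02, and 57.4% were positive, against 49.6% of all probes. The groups did not overlap for 0 members higher and 2 lower, against 3.91% and 3.90% of all probes. These were Hnrnpl and Snrpd1. Hnrnpl read 1089, 984 and 1139 in unstrained and 901, 875 and 735 in strained fascicles at 1 h, and 919, 872 and 1029 in unstrained and 915, 1217 and 1083 in strained fascicles at 24 h. Hnrnpl, a binder of CA repeats, was lower on all strained than on all unstrained arrays at 1 h and not at 24 h; its difference was -0.36 ± 0.12 (adjusted p = 0.964).

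Among the genes of smallest p at 1 h, none of which passed, Hnrnpd was 0.36 ± 0.15, Sf3b2 0.14 ± 0.10, Lsm10 -0.24 ± 0.11, Lsm7 -0.26 ± 0.16 and Snrpd1 -0.19 ± 0.09. The intensities of Hnrnpul1 were 95.3, 95.2 and 96.8 (unstrained, 1 h), 72.9, 77.2 and 96.9 (strained, 1 h), 87.6, 80.6 and 76.8 (unstrained, 24 h) and 78.8, 88.9 and 78.1 (strained, 24 h). For Prpf38a, the 1 h arrays gave 220, 159 and 176 without strain and 237, 221 and 183 with it, and the 24 h arrays 186, 191 and 147 without and 241, 245 and 187 with it. Hnrnpul1 was lower on replicates 1 and 2 of strained 1 h and not on replicate 3, and Prpf38a overlapped between the groups; the differences were -0.23 ± 0.11 and 0.21 ± 0.16. Srsf2 and Srsf6 differed by 0.26 and 0.16. All 9 SR proteins had a positive difference at 1 h, from 0.01 to 0.26. None had an unadjusted p under 0.05 without the replicate block; with it Srsf2, higher in all 3 pairs at 0.26 ± 0.10, did, and did not pass after adjustment by limma (adjusted p = 0.457). The 95% intervals of the 54 genes reached from -0.78 to 1.06, both ends belonging to Snrpn, the noisiest of them. The replicate numbers were taken to pair the arrays at 1 h from their correlations, which the labels do not state. With the replicate block fitted by limma separately at each time, 0 members and 23 of 11258 probes (0.204%) passed. The smallest adjusted p of a member was 0.384. In that fit 4 members (7.41%) and 9.10% of all probes had an unadjusted p under 0.05.

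**Figure D4:**
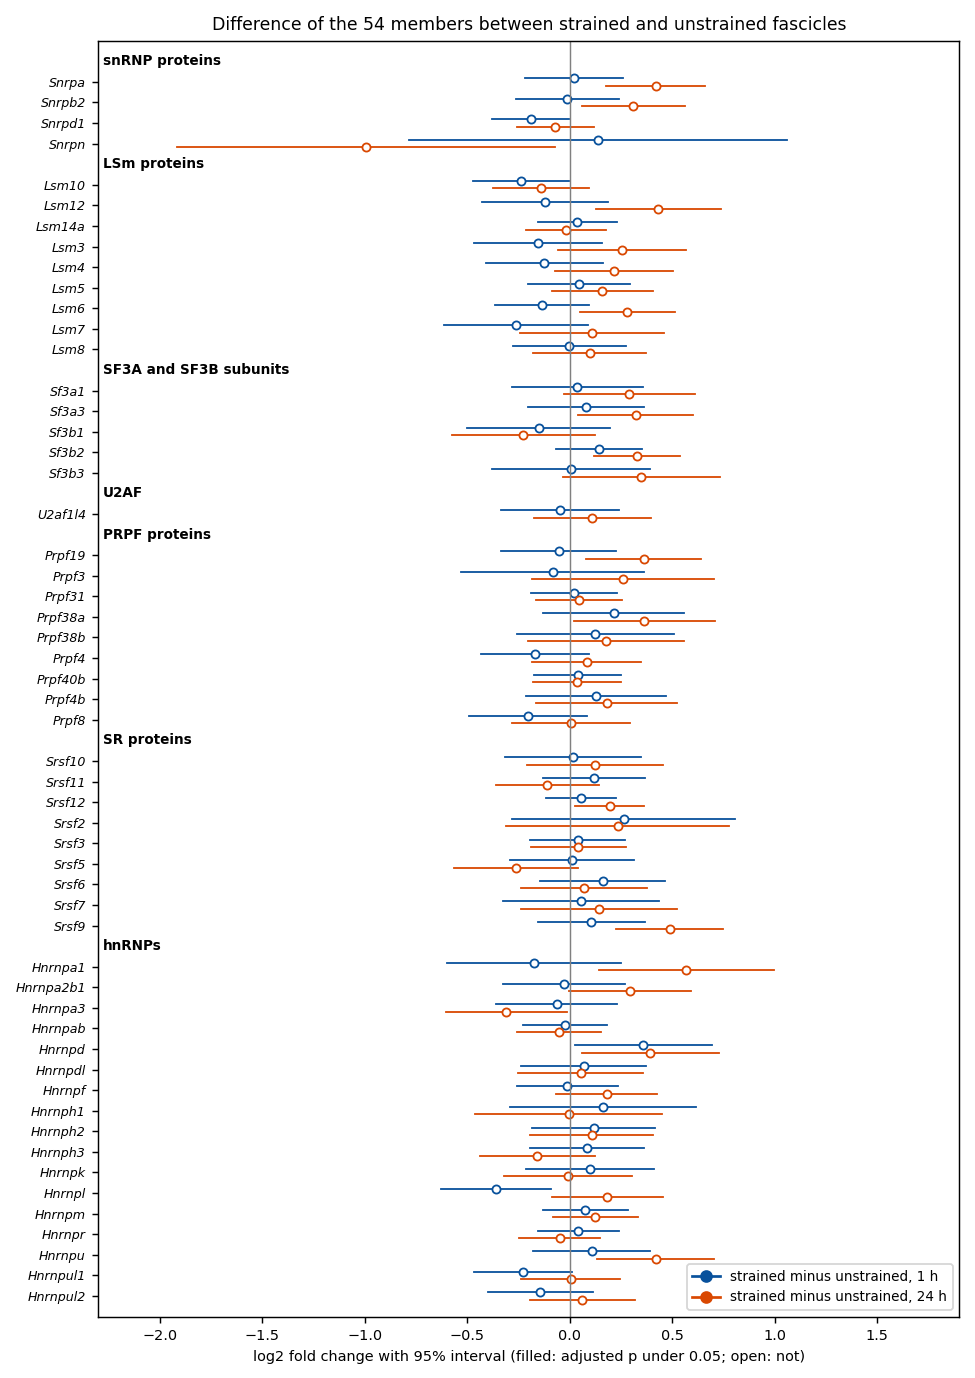
Log2 fold change between strained and unstrained fascicles for each of the 54 genes, at 1 h and at 24 h, with 95% intervals from limma; open points did not pass an adjusted p under 0.05. All points are open, those at 1 h centre near 0 and those at 24 h lie mostly to the right of it.

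After 24 h of strain 0 of 54 genes passed as well, while 15 (27.8%) had an unadjusted p under 0.05, against 13.2% of all probes. A positive difference was found for 41 (75.9%), against 53% of all probes. The median was 0.12 against 0.01 over all probes. The strained arrays lay wholly above the unstrained ones for 15 members and wholly below for 3, against 11.2% and 9.34% of all probes. Strained minus unstrained arrays of the same number gave medians over the 54 genes of 0.08, 0.11 and 0.17 for numbers 1, 2 and 3. In these, 64.8%, 63% and 75.9% of members were positive, against 50.7%, 51.6% and 51.7% of all probes. The numbers were not taken to pair the 24 h arrays, so these are not 3 separate results. The smallest p-values were those of Srsf9 at 0.49 ± 0.12 (adjusted p = 0.0593) and Snrpa at 0.42 ± 0.11 (adjusted p = 0.0767), whose strained arrays all lay above the unstrained ones. Sf3b2 was 0.33 ± 0.10 (adjusted p = 0.114), Hnrnpu 0.42 ± 0.13 (0.142) and Lsm12 0.43 ± 0.14 (0.162). These calls depend on the model: array weights brought 4 members past the threshold, among them Srsf9 and Snrpa, both higher.

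**Figure D5:**
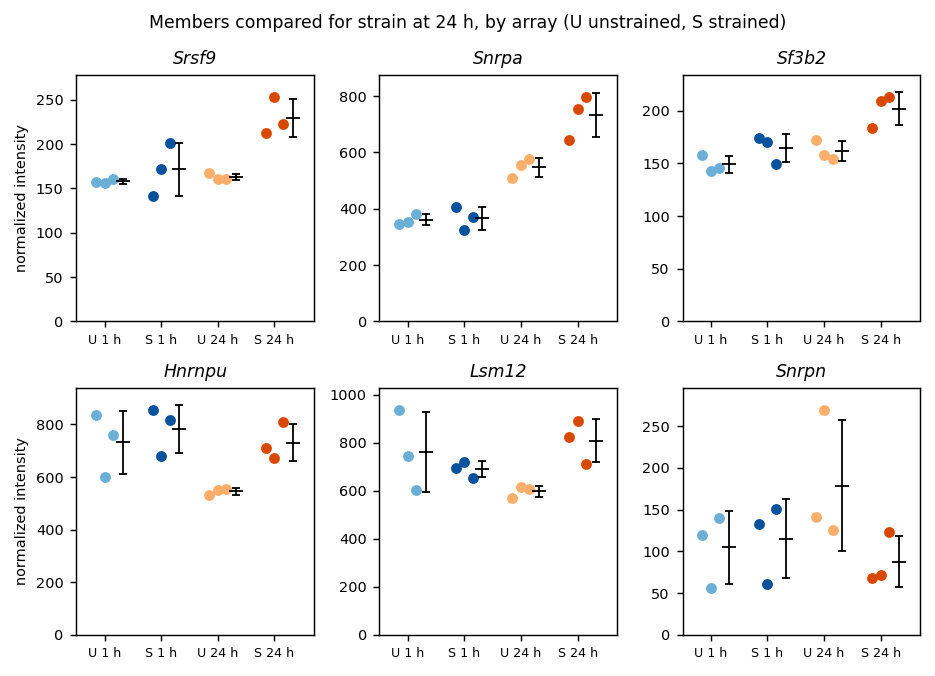
Deposited intensity on each array (points, arbitrary units, axis from 0) for Srsf9, Snrpa, Sf3b2, Hnrnpu, Lsm12 and Snrpn, in the 4 groups of 3 arrays, with the bar at the group mean and the error bar its SD. At 24 h the strained arrays lie above the unstrained ones for the first 5 genes and below them for Snrpn.

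On the lower side, Snrpn was -0.995 ± 0.42 (adjusted p = 0.326, interval -1.92 to -0.07) and Hnrnpa3 -0.31 ± 0.14 (adjusted p = 0.343), both with groups that did not overlap. Replicate 2 of unstrained 24 h had Snrpn at 269, against 141 and 126 on the other arrays of its group. Srsf5, Sf3b1 and Lsm10 differed by -0.26, -0.23 and -0.14. By role, 2 of 4 snRNP proteins, 7 of 9 LSm proteins, 4 of 5 SF3 subunits and the U2AF gene had a positive difference. So did 9 of 9 PRPF proteins (0.01 to 0.36), 7 of 9 SR proteins and 11 of 17 hnRNPs, against 53% of all probes. Among the LSm proteins, 6 of 6 genes of the U6 ring were positive. None of these passed, and genes read on the same arrays are not independent. Of the macrophage and leucocyte markers, 1 of 12, Cd53, passed as lower with strain at 24 h, and the median of the 12 was -0.28. Also passing were 1 of 4 smooth muscle markers, Cspg4, which was higher, and 1 of 5 nerve markers, Cnp, which was lower. Over all probes 2.34% passed, and each of these counts rests on 1 gene. The part of all these markers in the differences was not tested.

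The difference between the strain effects at 24 h and 1 h equals the difference between the time effects with and without strain, so 1 test serves both. It passed for 0 of 54 members and for 0.0799% of all probes, and 7 members (13%) had an unadjusted p under 0.05, against 8.15% of all probes. The median was 0.12, against 0.01 over all probes. The smallest p was that of Hnrnpl, at 0.54 ± 0.17 (adjusted p = 0.368), followed by Lsm6 at 0.42 ± 0.15, Lsm12 at 0.55 ± 0.20, Hnrnpa1 at 0.74 ± 0.28 and Snrpa at 0.40 ± 0.16 (adjusted p of 0.426 to 0.484). For Snrpa the interval was 0.06 to 0.74. On the other side Snrpn had -1.13 ± 0.60, Hnrnph3 -0.24 ± 0.18 and Srsf11 -0.23 ± 0.16.

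Genes around the members were read from 6 lists of related factors, 112 genes in all. With time without strain 3.57% of them rose and 8.93% fell, against 9.83% and 7.42% of all probes. Under strain 16.1% rose and 7.14% fell, against 12.2% and 8.52%. The counts of single lists are small and are to be read against these shares. Among 19 kinases and SR-related proteins, 0 rose and 2 fell with time without strain, and 0 rose and 3 fell under strain. Tra2b, an SR-like activator of exons, fell by 0.53 and 0.43 on the log2 scale, and Luc7l, a U1-associated protein, changed by -0.66 without strain and differed by -0.02 with it (adjusted p = 0.965). Clk1, a kinase that phosphorylates SR proteins, differed by -0.56 ± 0.18 without strain (adjusted p = 0.0538) and fell by 1.09 with it (adjusted p = 0.00128). Of 24 splicing regulators and hnRNP proteins of other names, 0 rose and 4 fell without strain and 3 rose and 3 fell with it, shares near those of all probes under strain. The helicase Ddx5 had -0.73 ± 0.08 and -0.88 ± 0.08, the U-rich binder Tial1 -0.72 and -0.50, and Rbm39 -0.49 and -0.51, all lower on the 24 h arrays.

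Of 37 spliceosome proteins with other symbols, 2 rose and 1 fell with time without strain, and 7 rose and 1 fell with it. The cyclophilin Cwc27 rose by 0.66 ± 0.10 and 0.91 ± 0.10, the second-step factor Cdc40 by 0.44 without strain, and Puf60, which aids U2AF, changed by -0.30 there. Under strain Cdc40 and Puf60 differed by 0.24 and -0.13 and did not pass. The SMN complex and its partners load Sm rings on RNA, and of 13 measured, 1 rose and 2 fell without strain and 4 rose and 0 fell with it. Gemin8 rose by 0.95 ± 0.13 and 1.01 ± 0.13. Smn1, the core of that complex, changed by -0.52 ± 0.10 with time without strain (adjusted p = 0.00297), and Strap by -0.43. Under strain they differed by 0.03 and -0.19 and did not pass.

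Among 9 exon junction and export factors 0 rose and 1 fell without strain (Thoc3, -0.39, against 0.01 with strain) and 3 rose and 1 fell with it. Thoc6 and Thoc5 differed by -0.49 and 0.34 without strain and did not pass. Under strain Thoc6 fell by 0.56 and Thoc5 rose by 0.53 (adjusted p = 0.0447 and 0.0114). Of 10 cleavage and polyadenylation factors, 1 rose in each series, the endonuclease Cpsf3, by 0.88 ± 0.15 and 0.99 ± 0.15; Pabpn1 and Wdr33 did not pass, at -0.29 and 0.20 without and 0.05 and -0.04 with strain. For strain at 24 h, 4 of the 112 genes of these lists passed (3.57%, against 2.34% of all probes), a share near the background; they are named here after their values were seen. Smn1 was higher by 0.69 ± 0.10 (adjusted p = 0.0044), Rnps1, a splicing activator at exon junctions, by 0.56 ± 0.10 (adjusted p = 0.0177), and the 3′ end factor Cpsf6 by 0.40 ± 0.08 (adjusted p = 0.0347). Syf2 was lower, at -0.48 ± 0.08 (adjusted p = 0.0103).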

How the data were processed

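Total RNA of 12 samples of rat tail tendon fascicles was biotin-labelled and read on Illumina bead arrays, per the labels. The authors deposited a table of 22517 linear intensity values per array, with sorted values within 0.0928% of each other between arrays, a trait of quantile normalization; the software and any background correction were not given in the sources used here. Another deposited table numbers its 24 columns of per-sample values without naming samples, and it was not used.

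Intensities were taken as log2 with no further normalization, and 11258 probes in the upper 50% by mean (dimmest 56.2) were tested. Gene symbols came from GEO's platform annotation (13787 probes with 1 symbol). limma 3.58.1 in R 4.3.3 fitted 4 group means to all 12 arrays (residual degrees of freedom 8, prior 4.08), with 5 two-sided contrasts and Benjamini-Hochberg adjustment over all probes tested; a call is an adjusted p under 0.05. The script was tested on simulated data. Errors are standard errors unless marked SD, and intervals are 95%. Precision is limited by the number of arrays, and the standard error of a log2 difference had a median of 0.12.

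The members and lists were chosen with earlier results of these data known. Values on every array are given for the members called with groups that do not overlap (up to 10 in each direction of a contrast), for those of smallest p where fewer than 5 passed, and for the brightest probe of each role; up to 3 genes of smallest p over time without strain came from each related list. Replicate numbers were checked as pairs: deviations from the group means correlated at 0.60, 0.54 and 0.52 between unstrained and strained arrays of the same number at 1 h, and at 0.04, 0.31 and 0.39 at 24 h. The numbers were taken to pair arrays at 1 h and not at 24 h or across times. Alternatives were the filter, the background, the variance model, array weights, the arrays fitted, the replicate block, the probe per gene, centring and leaving out each array. Figures used matplotlib 3.10.9 in Python 3.11.15.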

Additional observations from a re-analysis of the deposited data

How the results depend on the processing

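Of the counts of members called, those for strain at 1 h (0), for the difference of the strain effects (0), and for time without (9) and with strain (24) stayed within 1.5 times under every alternative that could be fitted. For strain at 24 h the count of 0 became 4 with array weights (Snrpa, Lsm12, Sf3b2 and Srsf9), 1 with only the groups compared (Srsf9), 1 with the replicate block over all arrays (Srsf9, adjusted p = 0.0482) and 6 with the replicate block within each time (Snrpa, Lsm12, Srsf9, Hnrnpa1 and Hnrnpu higher, Snrpn lower). At 24 h the check of pairing gave correlations of 0.04, 0.31 and 0.39, against -0.05 to 0.19 across times, which does not settle whether the numbers pair those arrays. The numbers were not taken as pairs there, so the calls of that block are given only beside the main fit. Leaving out 1 array gave 0 to 1, the 1 being Srsf9 without replicate 1 or 3 of strained 1 h. The cause was not tested. The block within each time gave no value for the time contrasts, which it confounds. Of the members called, 5 of 9 without strain and 13 of 24 with it kept their call whichever array was left out. The upper 25% filter kept 46 members. With 3 arrays a group, and levels near the array median, small differences of dim members such as Snrpd1, Lsm14a and Hnrnpr may be missed.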
